A study of Homo sapiens with 24 samples.

Results

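The genes described here are 10 proteins that remove or read N6-methyladenosine (m6A), the methyl mark on adenosines inside messenger RNA. They are the demethylases FTO and ALKBH5 and the readers YTHDF1, YTHDF2, YTHDF3, YTHDC1, YTHDC2, IGF2BP2, HNRNPC and HNRNPA2B1. They were chosen by name, with earlier results of these data known, so that each carries a peak is no result. The question was where their own transcripts carry m6A peaks. Each peak's RefSeq transcript accession was matched to a gene symbol. All 10 were matched, of 9560 genes with a peak in any of the 4 deposited peak lists, and they held 69 of the 52777 peaks.

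The mark is written mainly in the nucleus by a complex around the methyltransferase METTL3, removed by demethylases of the AlkB family, and recognised by reader proteins that change how the transcript is spliced, exported, translated or degraded. YTH proteins bind the methylated base in a pocket of their YTH domain, whereas IGF2BP and HNRNP proteins bind RNA through other domains. Transcripts of m6A regulators can be methylated themselves.

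The experiment used the osteosarcoma line U2OS, in its wild type form (WT) and with METTL3 knocked out (KO), and all cells were cultured with 10 µM BrdU, a thymidine analogue, before the experiment. They were left without UV or given UVC at 50 J, and RNA was collected after 2 min at 37 °C. From polyadenylated RNA, 24 libraries of 50-base reads were listed, in immunoprecipitated (IP) and input pairs: WT cells had 3 pairs without UV and 4 with it, and KO cells 3 and 2, the last with replicates labelled 1 and 3. Neither the labels nor the design text say whether the knockout was 1 clone or a pool. The labels describe 1 list per condition for all its replicates, with no score, read count or depth, so no value below has a spread over replicates, and no difference between conditions could be tested. Intervals are 95% Wilson intervals for counting error alone, and peaks on 1 transcript are not independent.

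A peak list does not measure how much of a transcript was present, so fewer methylated molecules and fewer molecules of the transcript cannot be told apart in it. The WT lists held 13989 peaks without UV and 15465 with it, and the KO lists 13852 and 9471, the longest list resting on 4 IP libraries and the shortest on 2. Where 4 numbers follow each other below, they keep this order of lists. The part of library number in the differences below was not tested. METTL3 itself carried 2, 2, 1 and 2 peaks, so peaks were listed on its transcript in the KO conditions too, and a peak list cannot check the knockout. Of 8 osteoblast-lineage markers 4 (RUNX2, COL1A1, SPARC and SPP1) carried a peak in some list, against 0 of 4 blood markers, 2 of 4 epithelial (EPCAM and KRT8) and 1 of 4 neuronal (RBFOX3).

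FTO, an oxygenase that removes methyl groups from m6A and from the methylated adenosine beside the cap, lies on chromosome 16 (53703963 to 54121941, GRCh38). Its listed transcript, NM_001080432, carried 1 peak region in every list, counted in bases from the transcript start. In WT minus UV this peak ran from base 494 to 1000, and at 507 bases it was the widest of the 69. It ran from 567 to 950 in WT plus UV, from 681 to 960 in KO minus UV and from 671 to 950 in KO plus UV. The WT peaks were thus the wider ones, at 507 and 384 bases against 280 in each KO list, and they extended further toward the transcript start. A second region near the start, at 176 to 380 in WT plus UV and 170 to 320 in KO minus UV, was listed in those conditions alone. Another, at 2031 to 2130, was listed in WT minus UV alone and had the narrowest width in the lists, 100 bases.

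ALKBH5, the nuclear demethylase (chromosome 17, 18183828 to 18209954), carried a single region shared by 3 lists on NM_017758. It spanned 777 to 1040 in WT minus UV, 778 to 1020 in WT plus UV and 791 to 960 in KO minus UV, that is, 264, 243 and 170 bases. KO minus UV held a further 100-base peak at 3211 to 3310. KO plus UV held none on ALKBH5.

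**Figure D1:**
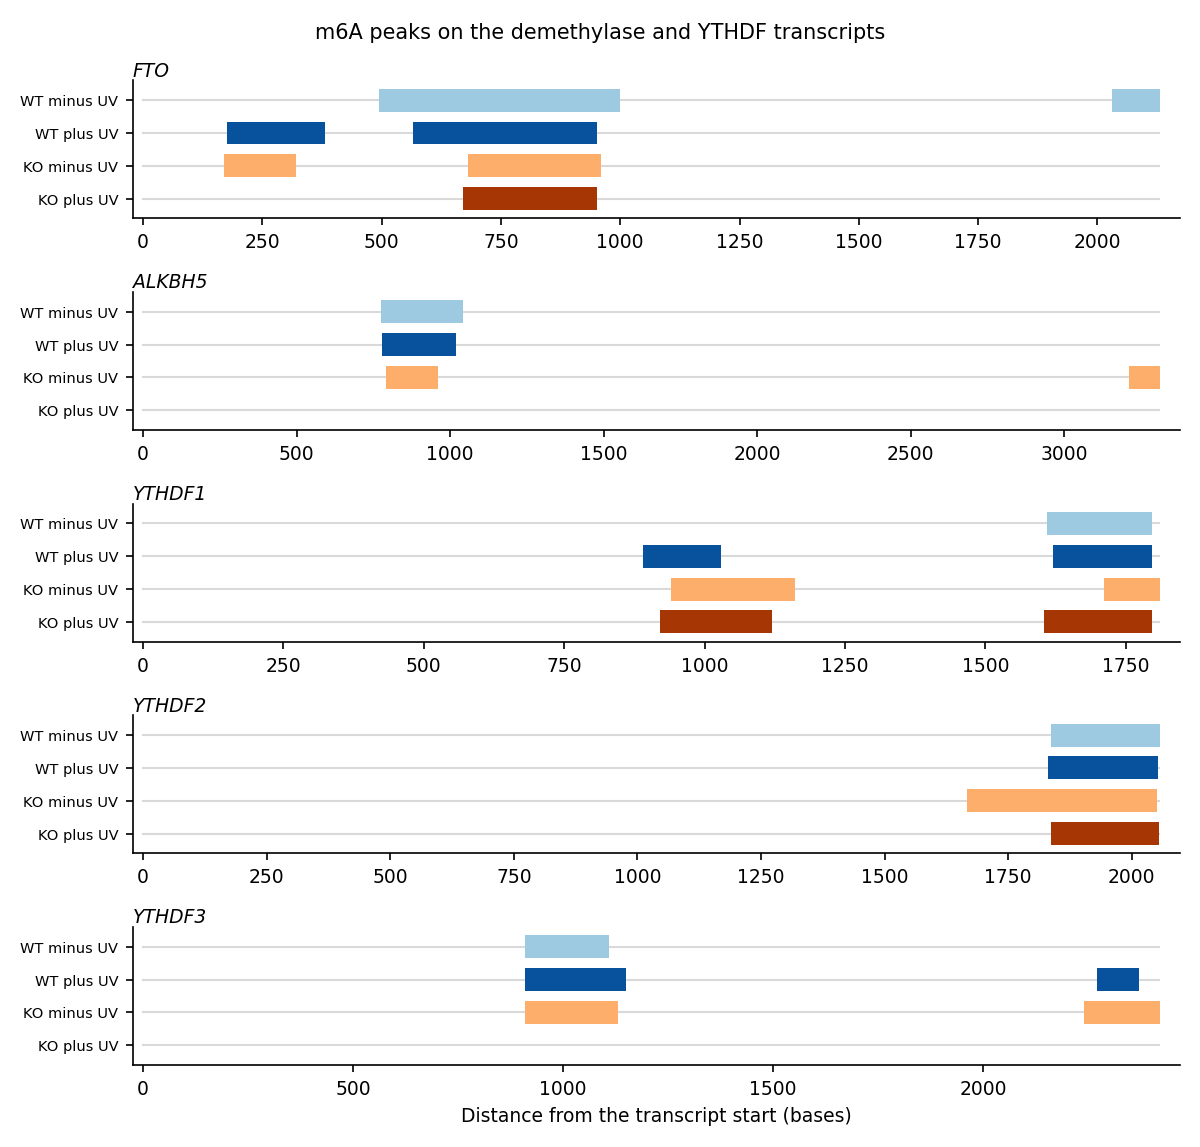
Peaks on the transcripts of FTO, ALKBH5, YTHDF1, YTHDF2 and YTHDF3, 1 row per list, against the distance from the transcript start in bases; grey lines end at the furthest peak end in any list, not at the transcript end. FTO, YTHDF1 and YTHDF2 each have 1 region marked in all 4 rows, and the KO plus UV rows of ALKBH5 and YTHDF3 are empty.

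The YTHDF proteins are 3 similar cytoplasmic readers, of which YTHDF2 is best known for sending methylated transcripts to the CCR4-NOT deadenylase and YTHDF1 for promoting translation. YTHDF1 (chromosome 20, 63195429 to 63216131; NM_017798) carried a region in every list. It lay at 1611 to 1797 in WT minus UV, 1621 to 1796 in WT plus UV, 1711 to 1810 in KO minus UV and 1605 to 1796 in KO plus UV. The KO minus UV peak, at 100 bases, was the narrowest of these. A second YTHDF1 region was found at 891 to 1029 in WT plus UV, 941 to 1160 in KO minus UV and 921 to 1120 in KO plus UV, and WT minus UV was the one list without it.

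YTHDF2 (chromosome 1, 28736624 to 28769775; NM_016258) carried a nearly constant peak. It ran from 1838 to 2056 in WT minus UV, 1832 to 2053 in WT plus UV, 1838 to 2050 in KO minus UV and 1838 to 2055 in KO plus UV. Thus 3 of the 4 starts fell on the same base and the ends lay within 6 bases of each other. KO minus UV held a second peak directly beside it, from 1667 to 1837, which ends where the other begins and overlaps only the WT plus UV peak, by its last few bases.

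YTHDF3 (chromosome 8, 63168553 to 63212788; NM_001277813) carried a region at 911 to 1110 in WT minus UV, 909 to 1150 in WT plus UV and 909 to 1130 in KO minus UV. The starts of these peaks lay within 2 bases. A region at 2271 to 2370 in WT plus UV and 2241 to 2420 in KO minus UV was listed in those conditions alone. As on ALKBH5, KO plus UV held no peak on YTHDF3.

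YTHDC1, the nuclear reader that acts in splicing and export (chromosome 4, 68310387 to 68350090; NM_001031732), carried the most peaks of the 10 transcripts when summed over the lists (12), with 3 and 4 in the WT lists (minus and plus UV) and 2 and 3 in the KO lists. In KO minus UV, YTHDC2 and IGF2BP2 carried more, with 3 each. Peaks at 831 to 1166, 858 to 1150, 857 to 1158 and 901 to 1135, in that order, formed a region of every list. So did peaks at 2322 to 2507, 2326 to 2505, 2315 to 2491 and 2441 to 2540. In the latter the KO plus UV peak was the displaced one, its start 126 bases from that of KO minus UV and 115 from that of WT plus UV.

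The YTHDC1 transcript start held 2 further regions with different patterns. A region at 175 to 374 in WT minus UV and 171 to 340 in WT plus UV was found in the WT lists alone. A region at 21 to 120 in WT plus UV and 31 to 130 in KO plus UV was found in the UV lists of both genotypes and in neither list without UV. It was the 1 such region among the 25 merged regions of these transcripts, and of all 20811 merged regions 1.98% had this pattern. Both peaks had the smallest width in the lists, 100 bases, and the WT minus UV peak began 55 bases downstream of the end of the WT plus UV one. When peaks within 100 bases count as shared, the WT plus UV peak is thus shared with that WT minus UV peak. Under that setting 5 WT plus UV peaks on these transcripts lack an overlap in WT minus UV, in place of 6. In WT cells the pattern of this region therefore depends on the overlap rule. The following stretch shows the sequence at the start of the UV peaks, transcript bases 21 to 50 if the listed transcript begins at the RefSeq gene start, which could not be checked here (chr4:68350041-68350070, minus strand, GRCh38.p14, RefSeq). Capitals mark bases inside both UV peaks, lower case those inside the WT plus UV peak alone:

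YTHDC1, bases 21 to 50: tcgcgcaggaAGCAGGCTCCATTTTAGCGC

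The core of the common methylation motif, GGAC, was absent from the first 50 bases on the transcript strand, and so was its reverse complement GTCC. Of 35116 gene starts of the same length in the RefSeq table, 18.9% hold GGAC and 17.6% hold GTCC. The rest of the peaks lies beyond the sequence used here.

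YTHDC2, a reader with an RNA helicase domain known for its role in meiosis (chromosome 5, 113513694 to 113595284; NM_022828), differed most between the WT lists in bases covered. It carried 3 peaks over 563 bases in WT minus UV and 1 peak over 155 bases in WT plus UV. The one in common lay at 4425 to 4630 in WT minus UV, 4442 to 4596 in WT plus UV and 4431 to 4600 in KO minus UV. A peak at 5154 to 5311 in WT minus UV and 5156 to 5311 in KO minus UV was found without UV in both genotypes, a pattern of 3.70% of all merged regions. WT minus UV alone held a peak at 2982 to 3180 and KO minus UV alone one at 4814 to 4960. KO plus UV held none on YTHDC2.

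IGF2BP2, a KH-domain protein that stabilises bound transcripts (chromosome 3, 185643130 to 185825042; NM_001291869), carried 3 peaks in each list but KO plus UV, where it carried 1. A peak began at the first base of the transcript and ended at base 130 without UV and 140 with it in WT cells, and at base 120 in KO minus UV. A second lay at 1901 to 2198 in WT minus UV, 1891 to 2197 in WT plus UV and 2041 to 2230 in KO minus UV. The third was in every list, at 2773 to 2981, 2774 to 2982, 2817 to 2940 and 2776 to 2890 in the same order with KO plus UV last. In both WT lists it was 209 bases wide with edges 1 base apart, against 124 and 115 bases in the KO lists. IGF2BP2 has 2 starts in the RefSeq promoter table, so no sequence is shown for its start.

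Member peaks that start within the first 50 bases of a transcript were 1 of 17 without UV and 2 of 20 with it in WT cells. In KO cells they were 1 of 21 and 1 of 11, and all lay on IGF2BP2 or YTHDC1. Over all transcripts the shares were 9.22%, 10.3%, 9.05% and 10.7% in that order. The member counts are too small to set apart from these shares and are no result about these genes.

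**Figure D2:**
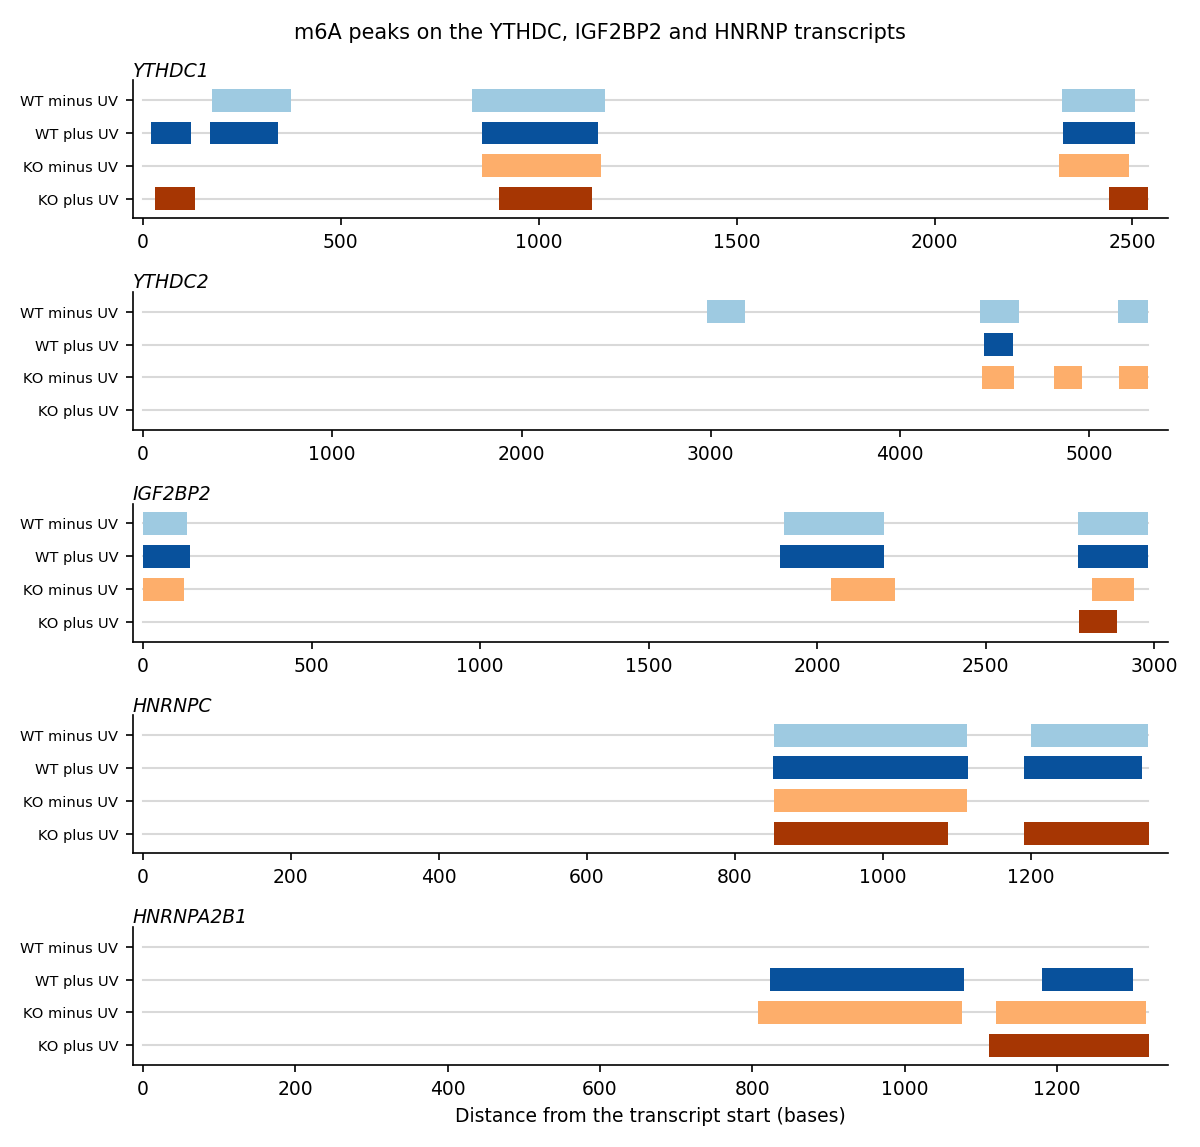
Peaks on the transcripts of YTHDC1, YTHDC2, IGF2BP2, HNRNPC and HNRNPA2B1, 1 row per list, against the distance from the transcript start in bases; grey lines end at the furthest peak end in any list. The short YTHDC1 peak at the far left is in both plus UV rows only, and the WT minus UV row of HNRNPA2B1 is empty.

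HNRNPC and HNRNPA2B1 are nuclear RNA-binding proteins, the first binding uridine tracts that m6A can expose by changing RNA structure and the second known in microRNA processing and splicing. HNRNPC (chromosome 14, 21209147 to 21269442; NM_031314) carried a region that was nearly the same in every list. It ran from 853 to 1113 in WT minus UV, 852 to 1115 in WT plus UV, 853 to 1113 in KO minus UV and 854 to 1088 in KO plus UV. The peaks of both lists without UV were identical in both edges. A second HNRNPC region, at 1201 to 1358, 1191 to 1350 and 1191 to 1359, was found in WT minus UV, WT plus UV and KO plus UV and not in KO minus UV.

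HNRNPC belongs to a family of near-identical copies: the RefSeq table names 13 HNRNPCL genes and HNRNPC pseudogenes. HNRNPCL1, the 1 copy found in the lists, carried a WT plus UV peak at 926 to 1082. How reads that match several copies were assigned is unknown here, so the HNRNPC peaks are uncertain to that extent.

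HNRNPA2B1 (chromosome 7, 26189927 to 26200746; NM_031243) was the 1 member without a peak in WT minus UV. The WT plus UV list gave it peaks at 824 to 1077 and 1181 to 1300. KO minus UV had peaks close by, at 808 to 1075 and 1121 to 1317, and KO plus UV had 1, at 1111 to 1320. Its absence was therefore from 1 WT list and from neither KO list.

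**Figure D3:**
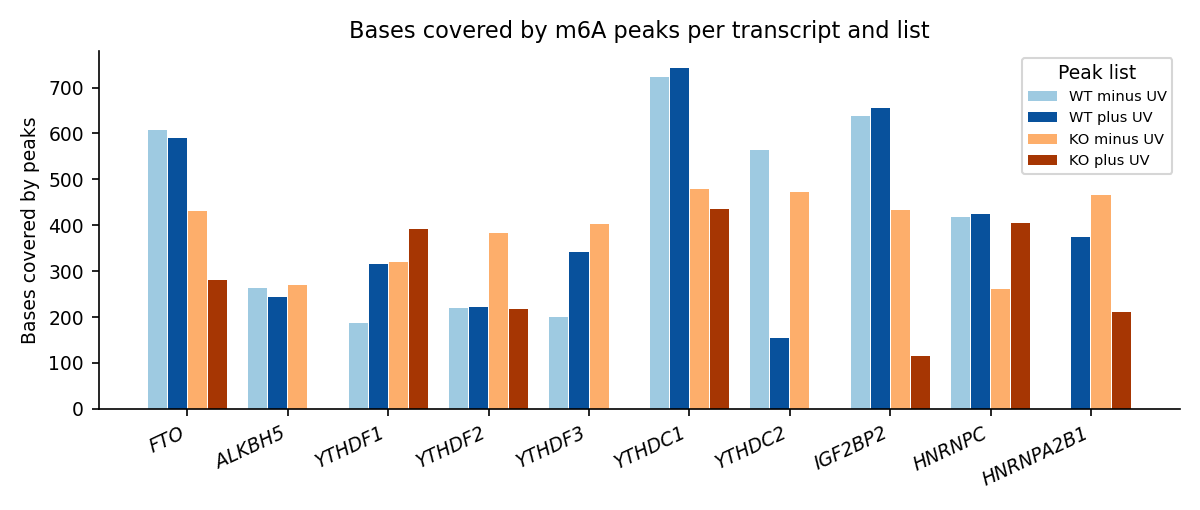
Bases covered by peaks on each of the 10 transcripts, 1 bar per list; there are no error bars because each condition has 1 list. YTHDC1 has the most bases covered in both WT lists (722 and 743), and ALKBH5, YTHDF3 and YTHDC2 have 0 in KO plus UV.

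The bases under peaks were summed per transcript, which gives the length covered by listed peaks and not the amount of methylation. In WT minus UV these sums ranged from 0 on HNRNPA2B1 to 722 on YTHDC1, and in WT plus UV from 155 on YTHDC2 to 743 on YTHDC1. The KO range without UV was 261 on HNRNPC to 479 on YTHDC1, and with UV 0 on ALKBH5, YTHDF3 and YTHDC2 to 435 on YTHDC1. Transcripts with at least 2 peaks numbered 5 of 9 members without UV and 7 of 10 with it in WT cells, and 9 of 10 and 3 of 7 in KO cells. Among all genes with a peak in the list, the shares with at least 2 were 51.8%, 52.1%, 52.7% and 44.8%.

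A peak in every list was found on 6 of the 10 genes, which were FTO, YTHDF1, YTHDF2, YTHDC1, IGF2BP2 and HNRNPC, where 41.2% of all genes with any peak had one. Leaving out KO plus UV, the list with the fewest libraries, 9 of 10 had a peak in each remaining list, where the share of all genes was 55.7%. Members with a peak numbered 9 and 10 in WT cells without and with UV, and 10 and 7 in KO cells. The shares of all genes with any peak were 74.6%, 83.4%, 72.9% and 57.7% in that order. The member counts follow the order of the lists as a whole except that KO minus UV held all 10. Because the members were chosen with earlier results of these data known, their recurrence is not read as a result.

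When overlapping peaks of any list were merged, the transcripts held 25 regions. Of these 7 were in every list (25.7% of all merged regions were) and 4 in 1 list (31.6%). Among peaks of at least 150 bases 4 of 20 regions were in every list (22.6%), and without the KO plus UV list 12 of 25 were in each remaining list (39.3%). The regions of every list lay on FTO, YTHDF1, YTHDF2, YTHDC1 (2 regions), IGF2BP2 and HNRNPC. Another 5 were in every list but KO plus UV (12.4%), on ALKBH5, YTHDF3, YTHDC2 and IGF2BP2 (2 regions), and 2 were in every list but WT minus UV (3.78%), on YTHDF1 and HNRNPA2B1. In WT plus UV and KO minus UV alone there were 3 (4.91%), on FTO, YTHDF3 and HNRNPA2B1. Both WT lists alone shared 1 (7.90%), on YTHDC1, and the KO lists alone shared 0 (2.53%). WT minus UV alone held 2 (8.53%), KO minus UV alone 2 (8.68%), and WT plus UV alone and KO plus UV alone held 0 each (10.8% and 3.57%).

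Peaks of regions found in more lists had larger median widths. The 4 member peaks of regions in 1 list had a median width of 123.5 bases (100 to 199) and the 29 of regions in every list one of 218 bases (100 to 507). These 29 include the YTHDF2 peak at 1667, which joined its region through the WT plus UV peak alone. Over all transcripts the medians were 153 and 197 bases. Regions were merged at 1 base of overlap, which wider peaks meet more easily. The part of this rule in the widths was not tested.

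In WT cells, the UV comparison asked whether peaks on these transcripts differ within minutes of UV damage. More peaks in WT plus UV were listed on YTHDF1, YTHDF3, YTHDC1 and HNRNPA2B1 (4 of 10; 35.0% of all genes with a peak in either list), fewer on YTHDC2 alone (1 of 10; 22.4%), and as many on FTO, ALKBH5, YTHDF2, IGF2BP2 and HNRNPC. HNRNPA2B1 was the 1 member with a peak with UV and none without (18.9% of all genes), and 0 members had the reverse (9.36%). With UV, 6 of 20 peaks (30.0%, 14.5 to 51.9) had no overlap in the list without it, against 30.0% of all peaks. They were the near-start peaks of FTO and YTHDC1, the peak at 891 of YTHDF1, the peak at 2271 of YTHDF3 and both of HNRNPA2B1. Of these 6, all but the YTHDC1 peak overlapped a KO minus UV peak, where 41.9% of all such peaks did. Without UV, 3 of 17 peaks (17.6%, 6.19 to 41.0) had no overlap in the UV list, against 22.4%, and they were the FTO peak at 2031 and the YTHDC2 peaks at 2982 and 5154. Both shares lie near those of all peaks, and a value near the background is no result about these genes. With peaks of at least 150 bases alone, 2 WT plus UV peaks of 15 were without an overlap, where 32.5% of all such peaks were.

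Where peaks of the WT lists overlapped, they matched closely. The 14 overlapping pairs had a median distance of 5.5 bases between centres and at most 19, against a median of 10 over all transcripts. Starts lay within 5 bases in 7 of 14 pairs, against 37.1% of all pairs. The UV peak was the wider in 6 of 14 pairs, where it was in 51.0% of all pairs. Between the KO lists the median centre distance of member pairs was 12 bases. Between the genotypes it was 9 without UV and 14 with it. Over all transcripts these medians were 12.5, 14 and 14. The largest member distances were 87.5, 86 and 75 bases in the same order, so the close match held for the WT lists.

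In KO cells, UV was accompanied by fewer listed peaks on most of these transcripts. Fewer peaks were listed on FTO, ALKBH5, YTHDF2, YTHDF3, YTHDC2, IGF2BP2 and HNRNPA2B1 (7 of 10; 46.8% of all genes with a peak in either list), more on YTHDC1 and HNRNPC (2 of 10; 19.5%), and as many on YTHDF1. ALKBH5, YTHDF3 and YTHDC2 had a peak without UV and none with it (3 of 10; 29.2%), and 0 members had the reverse (10.6%). Without UV, 12 of 21 KO peaks (57.1%, 36.5 to 75.5) had no overlap in the UV list, against 47.0% of all peaks. With UV, 2 of 11 KO peaks (18.2%, 5.14 to 47.7) had no overlap in the list without it, against 22.6%. These 2 were the YTHDC1 peak at 31 and the HNRNPC peak at 1191. The count of 2 becomes 4 when an overlap must cover 50% of both peaks (30.4% of all KO plus UV peaks) and 1 when peaks within 100 bases count as shared (20.3%). Behind these lists stood 2 IP libraries with UV and 3 without, and the part of that difference was not tested. The UV peak was the wider in 3 of the 9 overlapping pairs, against 39.0% of all pairs.

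**Figure D4:**
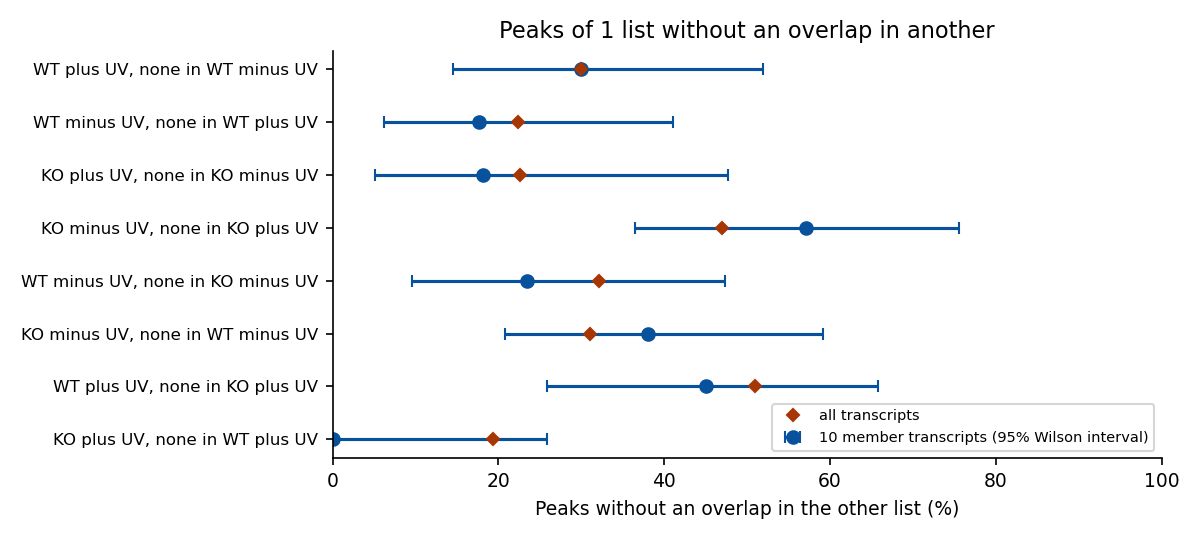
Share of the peaks of 1 list with no overlap of 1 base or more in another list, in percent: circles with 95% Wilson intervals for the 10 transcripts, diamonds for all transcripts. Every diamond lies inside the interval of its circle, from 0.00% of 11 peaks at the bottom to 57.1% of 21 for KO minus UV against KO plus UV.

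Without UV, WT and KO cells were compared to ask which peaks were found with METTL3 present. Each list rested on 3 IP libraries. More peaks in WT were listed on YTHDC1 and HNRNPC (2 of 10; 32.6% of all genes with a peak in either list), fewer on ALKBH5, YTHDF1, YTHDF2, YTHDF3 and HNRNPA2B1 (5 of 10; 33.0%), and as many on FTO, YTHDC2 and IGF2BP2. HNRNPA2B1 had peaks in KO and none in WT (1 of 10; 16.4%), and 0 members had the reverse (18.4%). No KO peak overlapped 4 of the 17 WT peaks (23.5%, 9.56 to 47.3), against 32.1% of all peaks. They were the FTO peak at 2031, the YTHDC1 peak at 175, the YTHDC2 peak at 2982 and the HNRNPC peak at 1201. No WT peak overlapped 8 of the 21 KO peaks (38.1%, 20.8 to 59.1), against 31.1%.

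In the peaks that the lists without UV shared, the WT peak was the wider in 11 of 13 pairs, where it was in 52.5% of all 9983 such pairs. The exceptions were YTHDF3, with 200 bases in WT and 222 in KO, and HNRNPC, with 261 in both. The largest differences were on FTO (507 against 280 bases), IGF2BP2 (298 against 190 at the second peak) and ALKBH5 (264 against 170). YTHDF1, with 187 against 100, was similar. The smallest differences among the pairs wider in WT were on YTHDC2 (158 against 156 bases) and YTHDF2 (219 against 213). The median difference, WT minus KO, was 34 bases for these pairs and 2 over all pairs. With 1 list per genotype this has no replicate check. The pairs are not independent, as 3 of the 13 lie on IGF2BP2, and YTHDC1 and YTHDC2 also hold more than 1 each.

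**Figure D5:**
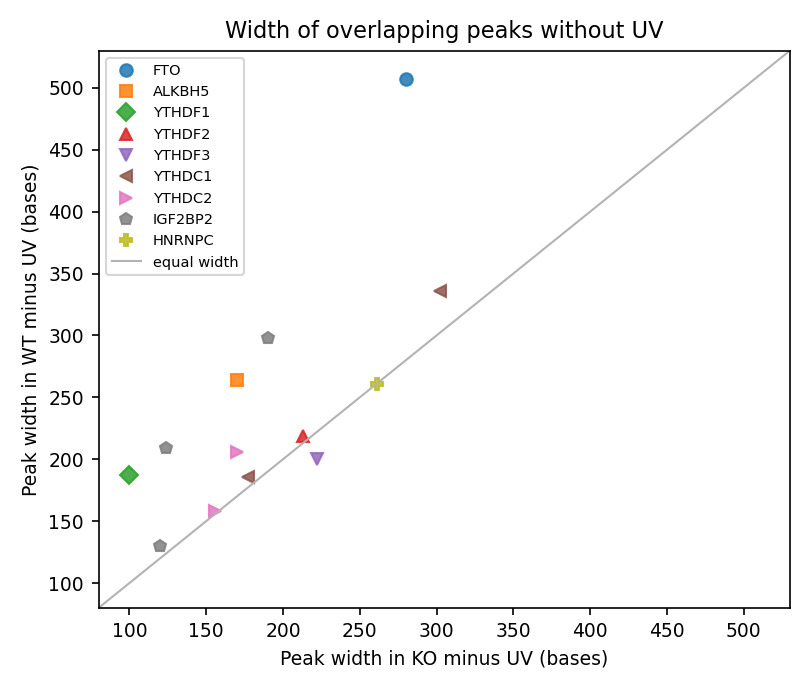
Width in bases of the 13 overlapping peak pairs in WT minus UV (vertical) and KO minus UV (horizontal), 1 symbol per gene, with the line of equal width. Of the pairs, 11 lie above the line, FTO farthest at 507 against 280 bases, and the YTHDF3 pair lies below it.

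With UV, every KO peak on these transcripts lay over a WT peak. Peaks without such an overlap numbered 0 of 11 (0.00%, 0.00 to 25.9), against 19.3% of all peaks. By the separate rule that a count of 0 allows up to 3 counts, the limit is 27.3%. The count becomes 1 when an overlap must cover 50% of both peaks (28.3% of all KO plus UV peaks) and 2 of 8 among peaks of at least 150 bases (18.6%). In the other direction, 9 of 20 WT peaks (45.0%, 25.8 to 65.8) had no KO peak over them, against 51.0%. More peaks in WT were listed on FTO, ALKBH5, YTHDF3, YTHDC1, YTHDC2, IGF2BP2 and HNRNPA2B1 (7 of 10; 52.4% of all genes with a peak in either list), and 0 members had fewer (15.4%). ALKBH5, YTHDF3 and YTHDC2 had a peak in WT and none in KO (3 of 10; 35.2%), and 0 members had the reverse (6.38%). The WT peak was the wider in 6 of the 11 overlapping pairs, against 63.0% of all pairs. Here 4 IP libraries stood behind the WT list and 2 behind the KO list. The comparisons share lists with each other, so the counts of one are not independent of the next.

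Other genes are given as 5 lists: writers and cofactors, other reported m6A proteins, AlkB relatives, HNRNP relatives and the CCR4-NOT deadenylase. The AlkB, HNRNP and CCR4-NOT genes were listed as relatives or partners of members, not as m6A factors. Of 12 writers and cofactors, 10 carried a peak in some list, with 7 genes in each WT list, 8 for KO cells without UV and 6 with it. CBLL1 carried 2 peaks in each list. VIRMA, a scaffold of the methyltransferase complex, carried 4, 4, 5 and 0, METTL16, a separate m6A methyltransferase, carried 1, 1, 3 and 1, and RBM15B, an adaptor, carried 0, 3, 0 and 3. RBM15B was thus listed in both UV lists alone, whereas METTL14, of the same list of genes, carried 1, 0, 1 and 0 peaks, the reverse pattern. The share of all genes with either pattern is not given here.

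Of 10 other proteins reported to bind m6A or to respond to it, 7 carried a peak, in 6, 7, 6 and 5 genes over the 4 lists in the same order. EIF3A, a translation initiation factor subunit, carried 6, 5, 6 and 6 peaks, PRRC2A 3, 4, 4 and 4, FXR2 1, 2, 1 and 2, and ELAVL1 1, 2, 2 and 2. IGF2BP1, IGF2BP3 and LRPPRC had no peak on any transcript that could be matched to a symbol.

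All 7 AlkB relatives of FTO and ALKBH5 carried a peak, in 5, 7, 6 and 2 genes. ALKBH1 carried 1, 2, 2 and 0 peaks, ALKBH8 3, 2, 1 and 0, ALKBH4 0, 1, 2 and 1, and ALKBH2 1, 1, 1 and 0. KO plus UV held none on 3 of these 4 transcripts, where 57.7% of all genes with any peak had one in that list.

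Of 19 HNRNP relatives 17 carried a peak, in 15, 16, 15 and 12 genes, with 2, 2, 2 and 0 peaks on HNRNPUL1, 3, 3, 2 and 1 on HNRNPLL, 2, 3, 3 and 0 on HNRNPUL2 and 1, 1, 2 and 1 on HNRNPR. The CCR4-NOT deadenylase recruited by YTHDF2 had a peak on 9 of its 11 listed genes, in 6, 8, 6 and 6 genes over the lists. CNOT9 carried 2, 3, 3 and 2 peaks, CNOT8 2 in each list, and the scaffold CNOT1 and CNOT2 each 2, 2, 2 and 1.

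Likeness was measured as the distance between the bases covered in the 4 lists, so a small value means a similar pattern over 4 points that share libraries within a list. The nearest gene was ATP13A2 for YTHDF2 (14.4 bases), SNU13 for ALKBH5 (25.1), FGFR4 for YTHDF3 (28.5), WASL for FTO (29.3) and DEPDC1B for YTHDF1 (30.8). ITGAV was nearest to HNRNPC (37.8), C3orf38 to HNRNPA2B1 (52.4), SPIN4 to YTHDC1 (55.7), PASK to YTHDC2 (69.7) and TFRC to IGF2BP2 (81.5). The 4 peak numbers of YTHDC2 were found on 2 other genes (0.0209% of all genes with any peak) and those of YTHDC1 on 6 (0.0628%). Those of YTHDF2, with fewer peaks, were found on 133 (1.39%).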

How the data were processed

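RNA bound by an m6A antibody and its input were sequenced from 8 groups (genotype, UV, library type). The submitters' processing notes name TopHat2 2.0.14 and the build hg38. For the peak caller, its threshold and the combining of replicates and inputs, no source used here gives a name or setting. The values of the deposited peak lists have no unit of signal (other): the authors give, for each peak, a transcript accession and 2 positions, its first and last base along the transcript, read here as counted from 1 with both ends included.

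Accessions were matched without version through a RefSeq table (GRCh38.p14): 9563 of 9674 transcripts (98.9%) matched, and 111 did not. Of these transcripts, 114 carry a copy number, 0 of them a member's. Peaks were called shared when they overlapped by at least 1 base on a transcript. Comparisons are untested, as each condition has a single list. The alternatives were 50% overlap of the narrower or of both peaks, merging within 100 bases, a minimum width of 150 bases and copy-numbered transcripts left out. Named were all members, up to 4 genes per list of other genes by bases covered, METTL3, and the gene nearest to each member. HNRNPCL1 and METTL14 were added after their values were seen. The members and lists were chosen with earlier results of these data known. Overlap counting was tested on simulated data with known answers. Python 3.11.15, SciPy 1.17.1 and matplotlib 3.10.9 were used.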

Additional observations from a re-analysis of the deposited data

Results flagged for a closer look

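The change in the number of listed peaks with UV ran opposite ways in the genotypes on YTHDF3 (1 to 2 in WT, 2 to 0 in KO) and on HNRNPA2B1 (0 to 2 in WT, 2 to 1 in KO), a difference of 3 peaks in each case. Over all 10 transcripts the number went from 17 to 20 in WT and from 21 to 11 in KO, a difference of 13. YTHDF3 and HNRNPA2B1 had the largest differences of the 10 and were picked for that. Of all genes with a peak in either list, 35.0% had more peaks with UV in WT and 46.8% had fewer in KO. The share of all genes with both changes is not given here. These differences were not tested, since each condition has 1 list. The whole lists moved the same ways, from 13989 to 15465 and from 13852 to 9471 peaks, with 3 and 4 IP libraries in WT and 3 and 2 in KO. The part of library number in this pattern was not tested.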

How the results depend on the processing

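Of 86 values recomputed for 14 results under 7 alternatives, 30 could not change by the construction of the alternative, such as leaving out copy-numbered transcripts when 0 members have one. Of the other 56, 49 stayed within 1.5 times the value reported and 7 did not. The alternatives that counted peaks within 100 bases as shared and that left out KO plus UV were added after the data were seen. Requiring 50% of both peaks gave 4 KO plus UV peaks without an overlap in KO minus UV (2 reported) and 1 without one in WT plus UV (0 reported). Counting peaks within 100 bases as shared gave 1 for the former. With peaks of at least 150 bases alone, 2 KO plus UV peaks had no overlap in WT plus UV, 2 WT plus UV peaks had none in WT minus UV (6 reported), and 4 merged regions were in every list (7 reported). Without KO plus UV, 12 of 25 regions were in every remaining list (39.3% of all regions). The cause was not tested, except that the alternatives change the peaks or lists counted. No paired analysis was possible because the lists pool the replicates, and for the same reason no replicate could be left out. The depth behind a peak is unknown, so a peak missing from a list may be one that was not detectable there.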
